A study of Mus musculus with 6 samples.

Results

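The proteasome genes described here were all genes on a mouse expression array whose single platform symbol starts with Psma, Psmb, Psmc, Psmd, Psme, Psmf or Psmg. The prefixes picked 49 genes of 18193, and 47 of them were among the 11537 genes with enough signal to be tested. Gastrocnemius, a calf muscle, was taken from male C57BL/6J mice that had eaten 1 of 3 diets for 15 weeks, starting at 6 weeks of age. Fat made up 10 kcal% of the Control diet (D12450B) and 60 kcal% of the high-fat diet (HF, D12492). For the HF+SFC+ALA diet, sodium ferrous citrate, an iron salt, was added to the high-fat feed at 0.023% of its weight. The same feed also held 5-aminolevulinic acid phosphate, a salt of the precursor from which heme is made, at 0.2% of its weight. Each diet was sampled 4 h and 24 h after food was withdrawn, and the RNA of each of the 6 groups was pooled and put on 1 array. The labels also state an age of 21 months, which does not match this schedule, whereas 21 weeks would. How many animals entered each pool was not stated in the sources used here.

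The proteasome is the protease complex that degrades proteins tagged with ubiquitin, and in skeletal muscle it carries out much of the protein breakdown that follows fasting or disuse. Its core is a barrel made of outer alpha rings, which gate the entrance, and inner beta rings, which hold the cutting sites. A cap binds the tagged protein and removes the ubiquitin, and a ring of ATPases at the base of the cap unfolds the protein and feeds it into the barrel. Other activators can take the place of the cap, and dedicated chaperones put core and cap together.

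Among the 47 genes tested were 7 alpha ring and 7 beta ring subunits and 3 immune subunits that replace beta subunits under interferon. The cap was represented by 6 ATPases, 3 other base subunits and 8 lid subunits. The remainder were 3 chaperones of cap assembly, 3 activators, 1 inhibitor, 4 chaperones of core assembly, and Psmc3ip and Psme3ip1, which share the prefix and encode no part of the proteasome. Psma8, an alpha subunit of the testis, was at the signal floor of 26.4 in 5 of 6 pools and had a signal of 35.6 in the HF pool at 24 h. Psmb11, a beta subunit of the thymus, was at the floor in every pool. Both were left out of the tests. Psme2, the partner of Psme1, has no probe set that carries its symbol alone and was not analysed here.

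Signals were MAS5 intensities on a linear scale, and the arrays were close in scale, with a median signal of 63.0 to 69.5. The ratio of 3' to 5' actin probe sets, a gauge of RNA integrity, was 1.52 in the HF pool at 4 h and 1.08 to 1.22 in the other 5, with 1.08 in the Control pool at 24 h. The same ratio for Gapdh was 0.81 to 0.86 over the 6 pools, with 0.83 in the HF pool at 4 h. The 8 muscle fibre markers summed to 303697 to 355342 in the 6 pools and none was called in any comparison. The 5 adipocyte markers tested summed to 22938 to 37023, and 3 of them were higher in HF than in Control. None was called in the other comparisons, but 4 of the 5 were lower after 24 h in every diet (median -0.80), and all 5 were lower in HF+SFC+ALA than in HF at both times (median -1.68). The fibroblast markers summed to 6445 to 13733, with 3 of 4 higher in HF than in Control and 1 (Col1a1) lower after 24 h without food. All 4 were lower in HF+SFC+ALA than in HF at both times (median -0.42, 0 called). The 9 leukocyte and macrophage markers tested summed to 2186 to 3698 without a call, and Cd3e and Cd79a, which define T and B cells, were at the floor in some pools. The parts of these cells and of RNA integrity in the results given next were not tested, and in pooled tissue RNA a lower share of a cell type and less of a transcript per cell cannot be told apart. A group had 1 pool and no replicate, so a gene's only error is the spread between pools that remained after diet and fasting time were fitted. This spread has 2 residual degrees of freedom. Each p-value of the 3 comparisons combines it with spread borrowed from other genes of like signal, which weighs more, at 7.24 prior degrees of freedom.

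The proteasome genes moved little. Between its highest and its lowest pool a member tested differed by a median of 1.23-fold (range 1.06 to 1.52), against 1.42-fold for all genes tested and 1.25-fold for the 3488 genes at least as bright as the members' lower quartile. Only Psmc3ip, Psmd13 and Psmg4 reached 1.5-fold, 3 of 47 members (6.38%) against 40.3% of all genes and 13.2% of the bright genes. The core rings spanned a median of 1.18-fold and the cap ATPase, base and lid genes 1.26-fold. Over the 6 pools the highest signal of 24 of 47 members (51.1%) was in the Control pool at 24 h, where 22.9% of all genes and 26.5% of the bright genes had theirs. This held for 13 of the 17 cap subunits and for 7 of the 14 core ring subunits, but for none of the 3 immune subunits.

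**Figure D1:**
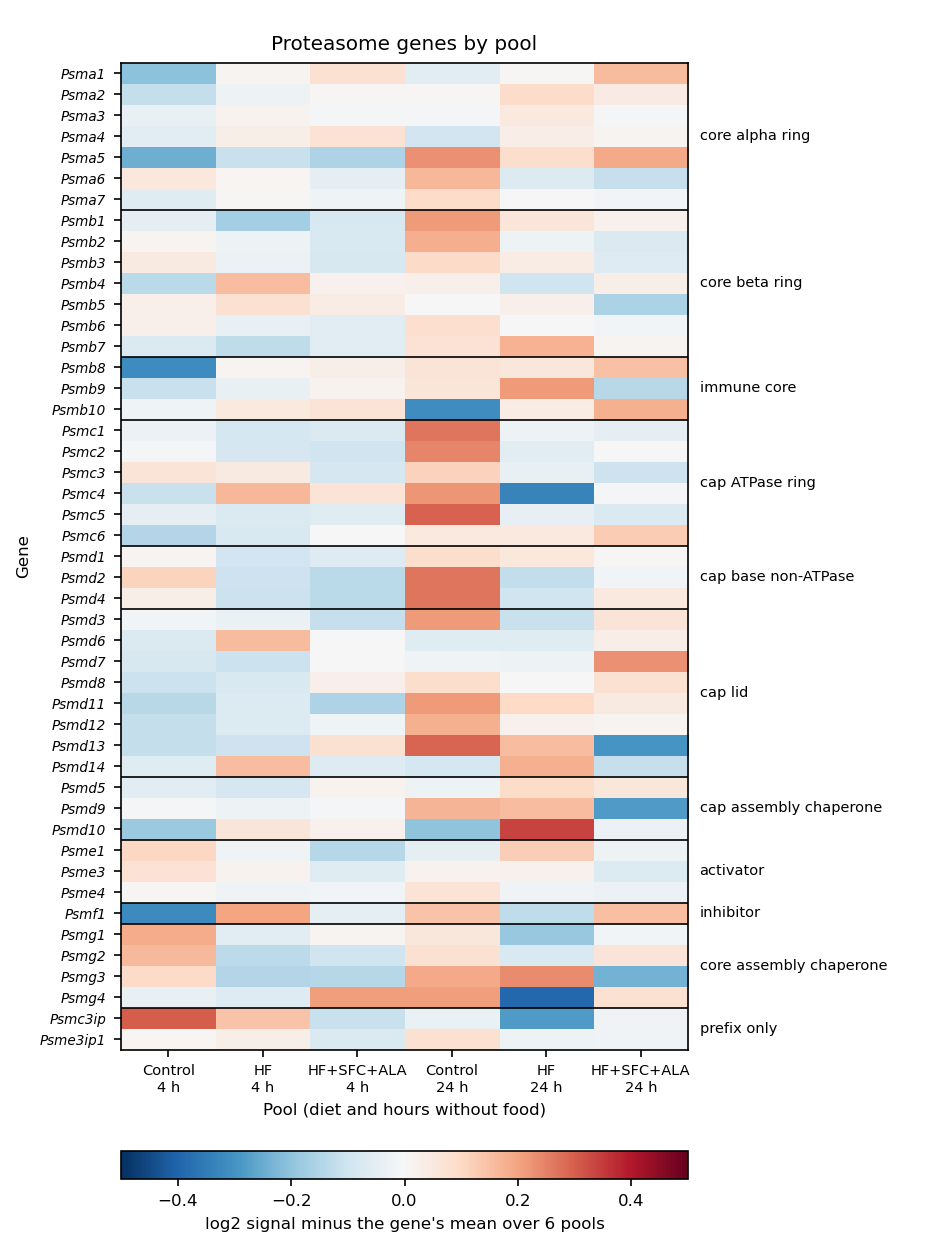
Each row is a proteasome gene and each column a pool; colour gives the log2 signal minus the gene's mean over the 6 pools, red above and blue below. The Control column at 24 h is the reddest in the cap rows, and Psma5 and Psmd11 are red in every 24 h column and blue in every 4 h column.

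**Figure D2:**
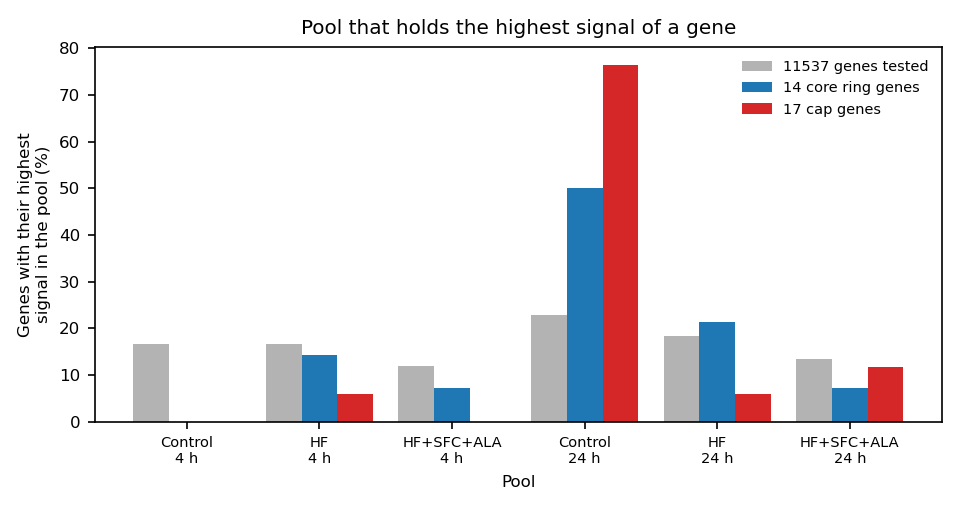
Bars give the percentage of genes whose highest signal lay in each pool, for all 11537 genes tested, the 14 core ring genes and the 17 cap genes. The Control pool at 24 h held the highest signal of 76.5% of the cap genes, 50% of the core ring genes and 22.9% of all genes.

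The first comparison asked how the proteasome genes differed between 24 h and 4 h without food. Psma5, an alpha ring subunit, rose and was the only member past the threshold, at 1.26-fold. The other members leaned upwards by less than the test could separate from the spread between pools: 34 of 47 fitted differences were positive. Among all genes 5962 of 11537 were positive, and among the bright genes 1647 of 3488. The median of the members was 0.07 on the log2 scale, against 0.01 for all genes and -0.01 for the bright genes. The lean was largest in the mice on the Control diet, whose median difference was 0.14 with 37 members positive, against 0.03 on both high-fat diets with 30 positive each.

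The signal of Psma5 was 6143, 6734 and 6531 at 4 h (in Control, HF and HF+SFC+ALA, an order kept from here on) and 8515, 7730 and 8297 at 24 h. All 3 pools at 24 h were above all 3 at 4 h. The fitted log2 difference was 0.34 ± 0.07 (SE; 95% interval 0.18 to 0.50; 3 pools against 3; limma adjusted p = 0.0488). Higher calls made up 1.48% of the genes tested and lower calls 0.91%, so 1 call among 47 members lies close to the background. A second Psma5 probe set above the filter had 2917, 3654 and 3171 at 4 h and 4020, 3768 and 3644 at 24 h. Its mean difference was 0.24, with a higher signal at 24 h in each diet. The call was lost without either Control pool or either HF+SFC+ALA pool, where the limma adjusted p of Psma5 ran from 0.126 to 0.213 and the difference from 0.27 to 0.33. It was also lost with no filter on signal, no floor, the mean over probe sets, a variance model without the trend and fasting time alone, with limma adjusted p from 0.0506 to 0.711.

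Psmd11, a lid subunit that bridges cap and core, had the second largest fitted difference. Its signal was 8433, 8853 and 8338 at 4 h and 10739, 9944 and 9577 at 24 h. The groups did not overlap, yet the fitted difference of 0.24 ± 0.07 missed the threshold (limma adjusted p = 0.105). Over all members, the 24 h pools were all above the 4 h pools in 8 (Psma2, Psma5, Psmb1, Psmb7, Psmb8, Psmc6, Psmd11 and Psmd12), or 17.0%, against 10.6% of all genes. They were all below in 1 (Psmb5), against 8.36% of all genes. At an unadjusted p of 0.05, 5 members were higher and 0 lower, while 9.83% of all genes were higher and 7.85% lower. In every diet 18 members were higher at 24 h (21.1% of all genes) and 2 lower (18.4% of all genes). No member differed by 1.5-fold in any diet, whereas 23.4% of all genes and 5.62% of the bright genes did.

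In the core rings the median fasting difference was small on each high-fat diet. On the chosen probe sets, single members ranged from -0.25 (Psmb4) to 0.30 (Psmb7) in HF and from -0.19 (Psmb5) to 0.35 (Psma5) in HF+SFC+ALA. The second Psmb4 probe set, of like signal, went the other way in HF (10179 at 4 h and 10697 at 24 h, 0.07). The alpha ring had a median difference of 0.13 in Control and of 0.01 in each high-fat diet, and the beta ring medians were 0.14 in Control, 0.04 in HF and, with the additions, 0.01. Psma6, the brightest alpha subunit, had 17692, 17152.5 and 16486 at 4 h and 19132, 16239 and 15738.5 at 24 h. It was higher at 24 h in Control and lower in both high-fat diets, and its fitted difference was -0.01 ± 0.07 (limma adjusted p = 0.956).

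The 3 beta subunits that cut proteins did not move as a unit. Psmb5, which cuts after hydrophobic residues, had 8274, 8565 and 8339.7 at 4 h and 8127, 8269.9 and 7289.6 at 24 h. All its 24 h pools lay under the 4 h pools, by a fitted -0.09 ± 0.07 (limma adjusted p = 0.534). Psmb6, which cuts after acidic residues, had 7039.7, 6736 and 6664 at 4 h and 7332, 6919 and 6845 at 24 h, higher at 24 h in each diet with overlapping groups (0.05 ± 0.06). Psmb7, which cuts after basic residues, had 13291, 12792 and 13459 at 4 h and 14688.5, 15774 and 14128 at 24 h. Its groups did not overlap, with a fitted difference of 0.17 ± 0.07 (limma adjusted p = 0.229).

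**Figure D3:**
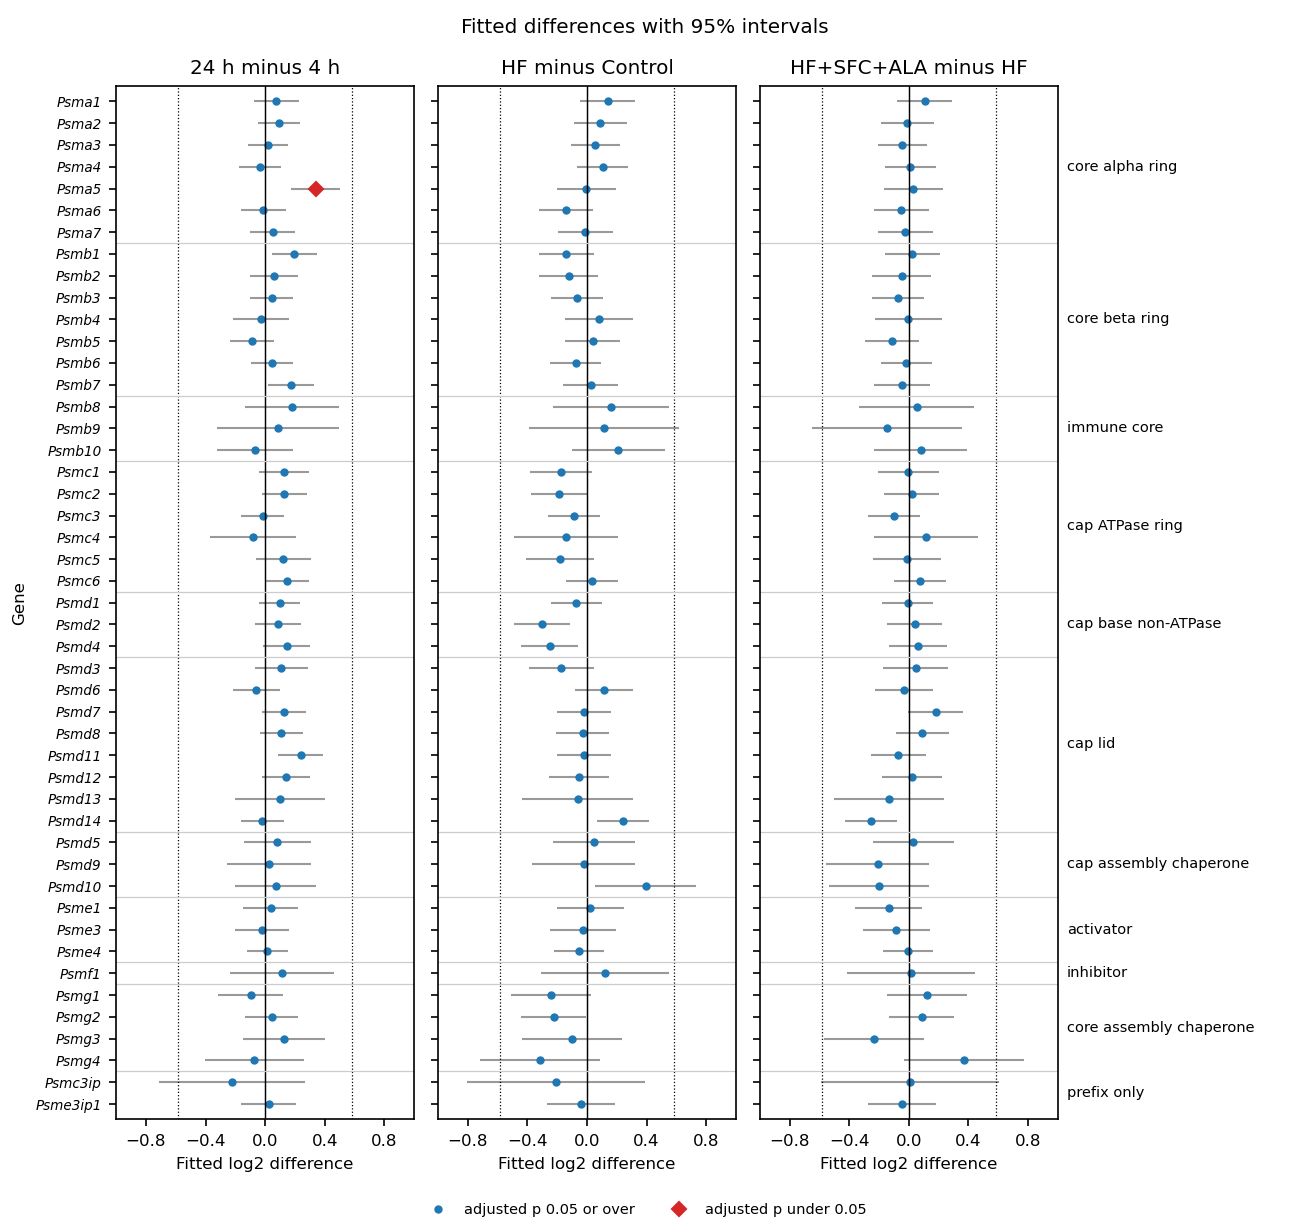
Points are fitted log2 differences of the 47 members in the 3 comparisons, with 95% intervals; the dotted lines mark 1.5-fold and the diamond the single member past an adjusted p of 0.05. Psma5 stands apart for fasting, and 46, 43 and 44 intervals of 47 lie within the dotted lines from left to right.

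In the cap the fasting difference was larger on the Control diet than on HF in the median of each class. All 6 ATPases were higher at 24 h than at 4 h in Control, with a median of 0.28, against medians of 0.03 in HF and 0.01 in HF+SFC+ALA. Psmc2, the brightest of these unfolding ATPases, had 14563, 13848 and 13681 at 4 h and 17383, 14129.5 and 14683 at 24 h. The Control pool at 24 h stood above the other 5, which lay between 13681 and 14683. Psmc5 had the same shape, with 4612, 4528 and 4565 at 4 h and 5854, 4637 and 4528 at 24 h. Neither fitted fasting difference passed (0.13 ± 0.07 for Psmc2 and 0.12 ± 0.08 for Psmc5, limma adjusted p = 0.367 and 0.493). Psmc4 went both ways, with 8467, 10237 and 9571 at 4 h and 10647, 7239 and 9095 at 24 h.

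Among the other base subunits, the median fasting difference was 0.15 in Control and 0.01 in HF, and it was 0.12 in HF+SFC+ALA. Psmd1, the brightest, had 9084, 8422 and 8592 at 4 h and 9552, 9323 and 9042 at 24 h, with overlapping groups. The lid subunits had medians of 0.21, 0.08 and 0.04. Psmd6, the brightest of the lid, had 14258, 16719 and 15003 at 4 h and 14371, 14359.8 and 15335.5 at 24 h, with its peak in HF at 4 h. Its second probe set did not share this peak, with 10902, 11137 and 11323 at 4 h and 11699, 11820 and 11550 at 24 h. The mean fasting difference was 0.07 there, against -0.06 for the chosen probe set. Psmd13 had 1583, 1597 and 1811 at 4 h and 2105, 1909.8 and 1399 at 24 h, so that its highest and lowest signals both came after 24 h without food.

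Taken over all 17 cap subunits, the median fasting difference was 0.23 in Control with 16 positive, and 0.03 and 0.05 in HF and HF+SFC+ALA with 12 positive each. The 14 core ring subunits gave 0.14 with 12 positive, then 0.02 with 9 and 0.01 with 10. A term for the fasting difference in Control minus that in both high-fat diets, added after the data were seen, left 1 residual degree of freedom. Its p-values rest mostly on spread that limma borrowed from other genes. By this term 0 members passed the limma test, while 0.442% of all genes were called higher and 0.407% lower. Psmc4 came nearest (0.62 ± 0.18, limma adjusted p = 0.0780). At an unadjusted p of 0.05, 2 members (Psmc4 and Psmd13) were higher and 0 lower, against 3.26% and 3.77% of all genes. The median of the term was 0.14 over the cap, 0.10 over the core rings and 0.01 over the bright genes. In the Control pool at 24 h, muscle fibre markers summed to 344312, the second highest of the 6 sums. Fibroblast markers summed to 6445 there and leukocyte and macrophage markers to 2186, each the lowest of its sums. Endothelial markers (2488) and adipocyte markers (26925) lay within the range of their other sums. The adipocyte markers had a median of -1.46 there against each gene's mean over the pools. The part of these cells, or of the pool's actin ratio of 1.08, in the cap values was not tested. Without that pool the median fasting difference of the members was 0.04. Of the 30 other member probe sets above the filter, 22 had a positive mean fasting difference and 11 had their highest signal in the Control pool at 24 h, among them 4 of 11 cap probe sets.

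**Figure D4:**
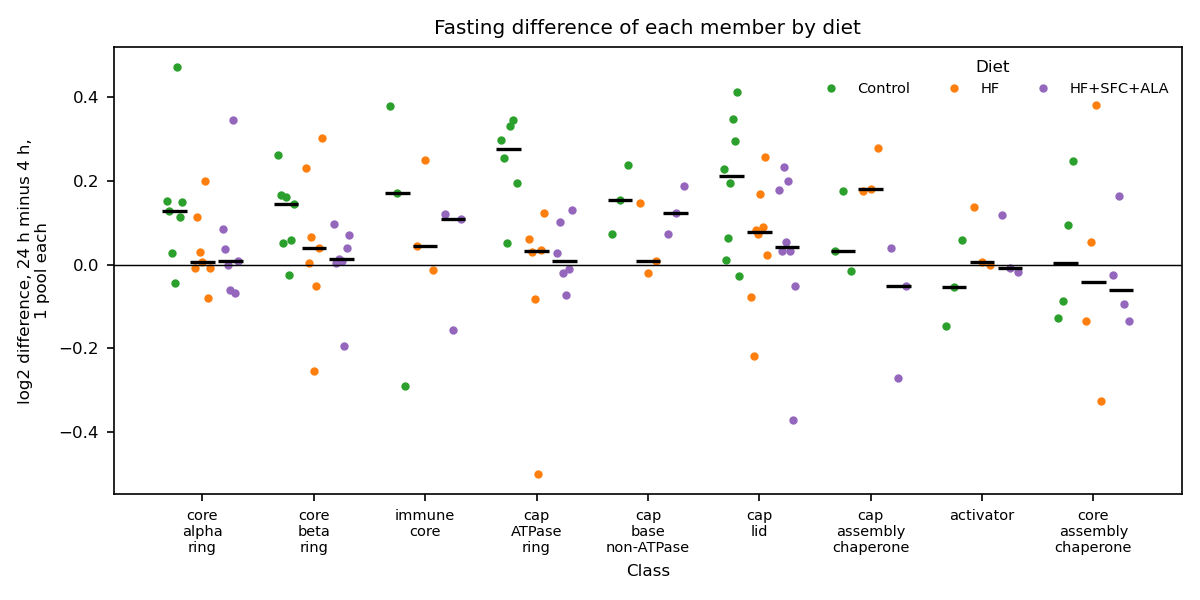
Each point is the log2 difference between 24 h and 4 h of a proteasome gene within a diet, from 1 pool at each time; bars are class medians. The Control points of the cap ATPase ring lie above 0 in all 6 genes, with a median of 0.28, whereas the HF and HF+SFC+ALA medians of that class are 0.03 and 0.01.

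The second comparison set the HF diet against the Control diet at the same fasting time. No member passed the limma test, with 2 higher and 3 lower at an unadjusted p of 0.05; of all genes tested, 0.563% were called higher and 0.321% lower, and 7.34% and 7.37% were higher and lower unadjusted. Of the 47 fitted differences 30 were negative, with a median of -0.03 against 0.00 for all genes and -0.02 for the bright genes, of which 1946 of 3488 were negative. The members were lower in HF at both times in 20 cases (30.5% of all genes and 37.9% of the bright genes). They were higher at both in 9 (29.4% of all genes and 26.7% of the bright genes). By time, the median was -0.02 at 4 h and -0.09 at 24 h. The 24 h value uses the same Control pool that stood high in the fasting comparison, so the 2 results are not independent. Without that pool the median was 0.0029, and without the Control pool at 4 h it was -0.086 and Psmc4 was called lower (-0.45, limma adjusted p = 0.0317).

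Psmd2 and Psmd4 at the base of the cap had the HF differences furthest below 0 relative to their errors. Psmd2, which docks proteins that deliver ubiquitinated cargo, had 5859, 5044 and 4932 at 4 h and 6519.5, 4975 and 5369 at 24 h. Both Control pools were above all 4 high-fat pools. The fitted HF difference of -0.30 ± 0.08 (95% interval -0.49 to -0.12, 2 pools against 2) did not pass (limma adjusted p = 0.153). Psmd4, a ubiquitin receptor, had 6965, 6337 and 6217 at 4 h and 8219, 6378 and 7075 at 24 h. Its HF pools were below the Control pools at both times, by a fitted -0.25 ± 0.09 (limma adjusted p = 0.228), and its second probe set above the filter gave -0.10. All 6 ATPases were lower in HF than in Control at 24 h, with a median of -0.30, against -0.02 at 4 h.

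Psmd14, the lid enzyme that removes ubiquitin from the protein being degraded, ran the other way. Its signal was 5437, 6313 and 5424 at 4 h and 5339, 6410.1 and 5232 at 24 h. Both HF pools were above the other 4, with a fitted difference of 0.24 ± 0.08 from Control (limma adjusted p = 0.21). Psma3 and Psmd10 shared this order, 3 members in all against 7.33% of all genes, and in Psmg1 and Psmg4 both HF pools were below the other 4, against 5.78%. Psmd10, a chaperone of cap assembly also known as gankyrin, had the highest fitted HF difference of any member, 0.39 ± 0.15 (95% interval 0.06 to 0.73, limma adjusted p = 0.274). Its pools read 410.1, 486 and 474 at 4 h and 406, 589.6 and 457 at 24 h, the Control pools being lowest. Psmd5, the brightest chaperone of this class, had 659, 648 and 693 at 4 h and 674, 732 and 713 at 24 h, a small spread with overlapping groups.

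The 4 chaperones that assemble the core all had negative fitted HF differences, with a median of -0.23. Psmg4 had the lowest of any member (-0.32 ± 0.18, limma adjusted p = 0.448), with 359, 351 and 425 at 4 h and 426, 280.4 and 387 at 24 h. The difference lay mainly at 24 h (-0.60, against -0.03 at 4 h). This was the only member value past 1.5-fold in a single pair of pools, against 19.6% of all genes and 5.28% of the bright genes. Psmg2 had 2355, 1921 and 1965 at 4 h and 2218, 1995 and 2201 at 24 h, with both Control pools on top (-0.22 ± 0.10, limma adjusted p = 0.334). Its second probe set above the filter gave 0.18, the opposite sign. Both Control pools were above all high-fat pools in 9 members (19.1%, against 10.8% of all genes and 16.1% of the bright genes) and below them in 5 (10.6%, against 10.4% and 10.9%).

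The probe sets of the 3 immune subunits gave low signals, and their intervals were wide. Psmb8, which replaces Psmb5, had 253, 317 and 320.4 at 4 h and 329, 327 and 348 at 24 h. Psmb9, which replaces Psmb6, had 173, 182 and 189 at 4 h and 195, 217 and 169.9 at 24 h. Psmb10, which replaces Psmb7, had 628, 661 and 669.6 at 4 h and 514, 655 and 722 at 24 h. The Control pools of Psmb10 were below all high-fat pools, while those of Psmb8 and Psmb9 overlapped them. Fitted HF differences were 0.16 ± 0.17, 0.11 ± 0.22 and 0.21 ± 0.14 in this order, and none passed (lowest limma adjusted p = 0.513). Beside them, 8 of 10 interferon and antigen presentation genes tested had positive fitted HF differences, with a median of 0.10 and 0 called. All 9 leukocyte and macrophage markers tested were positive, with a median of 0.62 and summed signals of 2186 to 2241 in Control and 3063 to 3698 in HF. The part of these cells in the immune subunit values was not tested.

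The activators and the inhibitor gave no common direction for fasting or for HF against Control. Between HF+SFC+ALA and HF all 3 activators were negative on the chosen probe sets (Psme1 -0.14, Psme3 -0.08), and the inhibitor had 0.02. A second Psme3 probe set above the filter gave 0.26. Psme4, a large nuclear activator, had 15418, 15171.5 and 15217 at 4 h and 16068, 15164 and 15037 at 24 h, a spread of 1.07-fold on the chosen probe set. Its fitted differences in the 3 comparisons were 0.01, -0.05 and -0.00, each with an SE of 0.06 to 0.07. Other Psme4 probe sets above the filter were less level. In the same order their mean differences were 0.05, -0.24 and 0.24 for a bright one and 0.13, 0.14 and 0.05 for another. A dim one gave 0.46, -0.65 and 0.09. Psmf1, which inhibits the core, had 362, 517 and 436 at 4 h and 498, 414 and 501 at 24 h. HF was above Control at 4 h and below it at 24 h, and the fitted difference was 0.12 ± 0.19. Of the 2 genes that share only the prefix, Psmc3ip, a partner of recombinases in meiosis, had the lowest fitted fasting difference (-0.22 ± 0.22, limma adjusted p = 0.66), with 171, 153 and 128 at 4 h and 135, 114 and 137 at 24 h. Psme3ip1 had 1262, 1279 and 1192 at 4 h and 1321, 1232 and 1240.2 at 24 h, with overlapping groups.

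**Figure D5:**
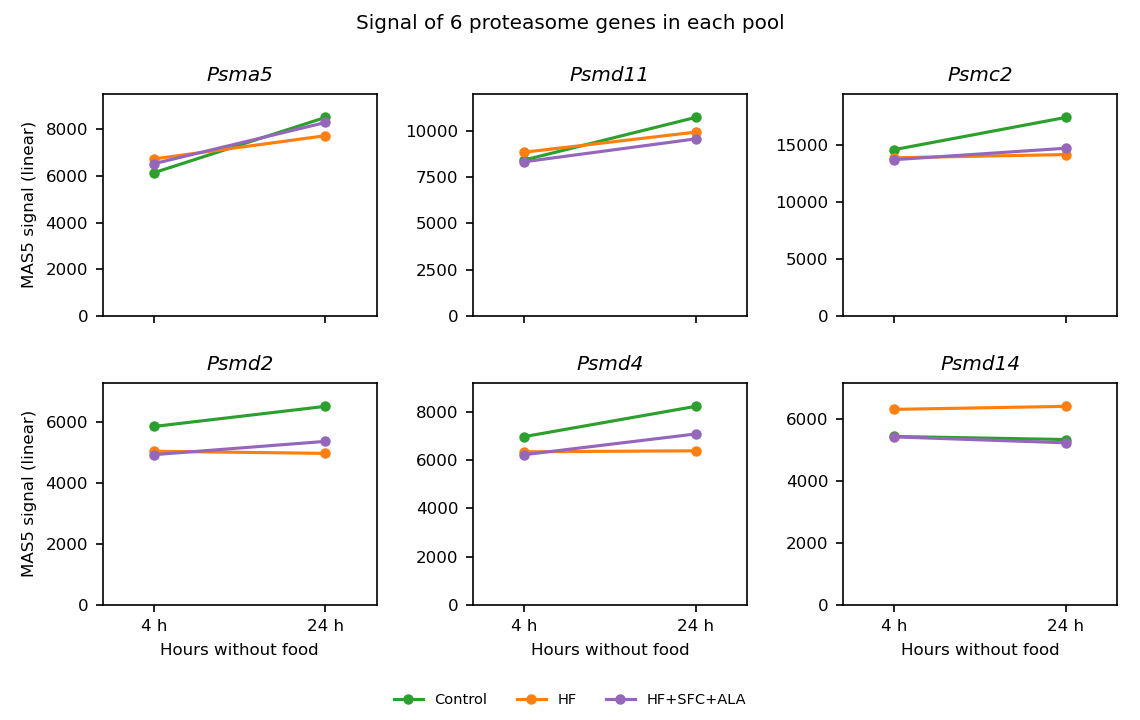
Lines join the MAS5 signals of 6 proteasome genes at 4 h and 24 h without food, 1 pool per point, coloured by diet. Psma5 and Psmd11 are higher at 24 h in each diet, Psmc2, Psmd2 and Psmd4 peak in Control at 24 h, and Psmd14 is highest in both HF pools.

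The third comparison asked what the iron salt and 5-aminolevulinic acid added to the high-fat diet. It shares the HF pools with the comparison of HF and Control, so a high HF pool raises one difference and lowers the other. No member and none of the 11537 genes (0%) passed the limma test, with 0 members higher and 1 lower at an unadjusted p of 0.05 (2.18% and 2.89% of all genes). The lower one was Psmd14, whose HF+SFC+ALA signals lay next to those of Control at both times. Its fitted difference from HF was -0.26 ± 0.08 (95% interval -0.43 to -0.08, limma adjusted p = 0.763), beside 0.24 for HF against Control. Psmg4 had the highest fitted difference, 0.37 ± 0.18 (limma adjusted p = 0.971), beside -0.32 for HF against Control.

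Psmd7, a lid subunit that pairs with Psmd14, had 6981, 6843 and 7367 at 4 h and 7296, 7249 and 8654 at 24 h. Both HF+SFC+ALA pools were above the other 4, as in Psma1 and Psmb10, which makes 3 of 47 members (6.38%) against 4.65% of all genes. The fitted difference of Psmd7 was 0.18 ± 0.08 (limma adjusted p = 0.971). Both HF+SFC+ALA pools were below the other 4 in Psmb2, Psmb3, Psmc3 and Psme3 (8.51%, against 5.61%). At both times 9 members were higher with the additions (24.1% of all genes) and 13 lower (26.6%), and none differed by 1.5-fold at either time, where 13.5% of all genes and 1.92% of the bright genes did. The median over members was -0.00, as it was for all genes. The 95% intervals of all 47 members lay within 2-fold in each of the 3 comparisons, against 10556, 9660 and 9973 of the 11537 genes for fasting, HF and HF+SFC+ALA, and 3469, 3444 and 3478 of the 3488 bright genes.

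Of 30 other genes listed for the ubiquitin-proteasome pathway, 21 were tested. After 24 h without food 3 rose and 0 fell: Fbxo32, a ubiquitin ligase of muscle atrophy (0.84), Zfand5, a zinc finger protein that activates the proteasome (0.41), and Ubqln2, a shuttle that carries ubiquitinated proteins to the cap (0.41), with limma adjusted p = 0.0015, 0.0208 and 0.026. Zfand5 had 22935, 21441 and 23829 at 4 h and 32589, 29071 and 28778 at 24 h, with no overlap. Between HF and Control 0 rose and 1 fell, Fbxo32 (-0.74, limma adjusted p = 0.00753), and between HF+SFC+ALA and HF 0 were called. At an unadjusted p of 0.05, 7 were higher and 1 lower for fasting, 0 and 6 for the HF diet, and 2 and 1 for the additions, beside the shares of all genes given above. Pomp, the chaperone that matures the core, had a fitted fasting difference of -0.02, and Sem1, a small lid subunit outside the prefix rule, one of -0.17. Neither passed. Usp14, a ubiquitin hydrolase of the cap, had a fitted difference of -0.24 between HF and Control and of 0.35 between HF+SFC+ALA and HF, neither past the threshold.

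Nfe2l1 is the transcription factor known to raise proteasome genes together when the proteasome is overloaded, through antioxidant response elements that it shares with Nfe2l2. Its signal was 7772, 7319.7 and 7735 at 4 h and 7528, 8222 and 7081 at 24 h, with overlapping groups and a fitted fasting difference of -0.00 (limma adjusted p = 0.992). Nfe2l2 had 2436, 2317 and 2516 at 4 h and 3499, 2675 and 2817 at 24 h, without overlap, and its difference of 0.30 did not pass (limma adjusted p = 0.118).

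The core of this element, searched as TGACNNNGC on both strands (GCNNNGTCA on the other) in the 250 bases before each start, was present in 5 of 44 promoter windows from 41 member genes (11.4%), against 10.2% of 32851 windows of the same length. Windows came from RefSeq (GRCm38.p6), and 8 members had no entry. The CCAAT box (CCAAT or ATTGG) was in 36.4% of member windows and 33.8% of all, and the GC box (GGGCGG or CCGCCC) in 50% and 32.7%. A match describes letters and is not evidence of binding. The windows with the element, 60 bases each, are shown because they belong to Psmb5 and Psmb6, which hold cutting sites, Psmc6, Psmd12 and the cap chaperone Psmd9. Capitals mark the match; in Psmd12 and Psmc6 it reads on the opposite strand.
Psmb5 (chr14:54618009-54618068, minus strand): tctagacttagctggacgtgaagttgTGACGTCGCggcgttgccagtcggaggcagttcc
Psmb6 (chr11:70525297-70525356, plus strand): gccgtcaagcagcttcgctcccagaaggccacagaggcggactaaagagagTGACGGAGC
Psmc6 (chr14:45329574-45329633, plus strand): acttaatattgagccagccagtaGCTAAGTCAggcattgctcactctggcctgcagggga
Psmd12 (chr11:107479278-107479337, plus strand): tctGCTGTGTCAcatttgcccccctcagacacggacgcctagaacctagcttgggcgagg
Psmd9 (chr5:123228130-123228189, plus strand): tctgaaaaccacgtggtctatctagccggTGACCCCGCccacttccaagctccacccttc

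On the chosen probe sets, the 5 genes with the match did not move together for fasting. Psmb5 was lower at 24 h in each diet, and Psmb6, Psmc6 and Psmd12 were higher in each. Psmd9 was lower in HF+SFC+ALA (-0.27) and higher in Control (0.18) and HF (0.18). Its second probe set above the filter turned both high-fat signs (0.66 in HF+SFC+ALA and -0.29 in HF) and gave 0.07 in Control. The other Psmc6 probe sets above the filter were lower in HF (-0.08 and -0.34) and higher in the other diets. Psma5 and Psmd11, the members with the largest fasting differences, had no match to the element in their windows. Their last 100 bases before the start are shown for comparison, with the GC box of Psmd11 in capitals; Psma5 has none in this stretch.
Psma5 (chr3:108256826-108256925, plus strand): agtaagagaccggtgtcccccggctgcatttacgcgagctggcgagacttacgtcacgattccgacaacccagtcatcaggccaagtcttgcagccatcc
Psmd11 (chr11:80428515-80428614, plus strand): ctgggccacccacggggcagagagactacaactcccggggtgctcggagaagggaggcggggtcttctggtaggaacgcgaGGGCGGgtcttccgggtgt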

How the data were processed

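The 6 arrays hold intensity values on a linear scale, 1 per probe set, which the authors deposited after MAS5, per the submitters' processing notes. Neither the version nor the settings of MAS5 are stated in the sources used here. Trimmed by 2% at each end, the mean signal was 500.004 on every array, so the arrays share a scale. The platform annotation gives 1 symbol for 34945 of 45037 non-control probe sets, several for 932 and none for 9160. Each gene was represented by its probe set of highest mean log2 signal, and 103 probe sets stood for the 49 members. Signals of different probe sets were set against each other only to choose them, not as levels of transcripts.

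Signals under the 30th percentile (26.4) were raised to that floor before log2, and genes with a mean log2 signal above the median (5.90) were tested. Diet and fasting time were fitted in 1 additive model with limma 3.58.1 (R 4.3.3, eBayes with an intensity trend, 7.24 prior degrees of freedom), with Benjamini-Hochberg adjustment over 11537 genes at 0.05. No genome build is named for the arrays. The fit was tested on simulated data. Figures used Python 3.11.15 with matplotlib 3.10.9. Alternatives were quantile normalization, other filters and floors, a pseudocount, the mean over probe sets, eBayes without the trend, fasting time alone, and leaving out each pool; the term for diet and fasting was added after the data were seen. The number of arrays limits the precision.

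The members and lists were chosen with earlier results of these data known. All pools are given for members past the threshold, those with the highest and lowest fitted difference of a comparison, the brightest of each class, and Psmb5 to Psmb10. Psmc4, Psmc5, Psmd2, Psmd4, Psmd7, Psmd11, Psmd13 and Psmg1, and the genes named only for a pattern over the pools, were named after their values were seen.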

Additional observations from a re-analysis of the deposited data

Results flagged for a closer look

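In 3 members the log2 difference between 24 h and 4 h without food exceeded 1.2-fold in opposite directions on different diets, with 1 pool at each time. Psmc4, an ATPase of the cap, was 0.33 in Control and -0.50 in HF. Psmd13, a lid subunit, was 0.41 in Control and -0.37 in HF+SFC+ALA. Psmf1, the inhibitor, was 0.46 in Control and -0.32 in HF. The term for Control against both high-fat diets leaves 1 residual degree of freedom, and its p-values rest mostly on spread borrowed from other genes. In it these 3 members had 0.62, 0.47 and 0.52 in this order, with limma adjusted p = 0.0780, 0.455 and 0.782. The contrasts of single diets were not tested. For Psmc4 a second probe set above the filter gave -0.04 in Control and -0.34 in HF. For Psmd13 it gave -0.11 in Control and -0.05 in HF+SFC+ALA. For Psmf1 a pair gave 0.03 and 0.17 in Control, and -0.03 and -0.25 in HF. The pattern makes 6.38% of the members tested, against 12.8% of all genes.

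Between HF and Control, 2 of these members went in opposite directions at the fasting times, untested and from the same pools. Psmc4 was 0.27 at 4 h and -0.56 at 24 h, and Psmf1 was 0.52 at 4 h and -0.27 at 24 h. The other probe set of Psmc4 gave 0.07 and -0.23, and those of Psmf1 0.10 and 0.04, and -0.12 and -0.53. This makes 4.26% of the members, against 5.99% of all genes.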

How the results depend on the processing

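The count of members past the threshold for fasting, 1 (Psma5), became 0 with no filter on signal (limma adjusted p of Psma5 0.358), no floor (0.0506), the mean over probe sets (0.711), eBayes without the trend (0.31) and fasting time alone in the model (0.101), and was 0 to 1 when each pool was left out. Psma5 was still called with quantile normalization, the 65th percentile filter, the pseudocount, and without either HF pool. For HF against Control the count was 0 to 1 and the median -0.086 to 0.0029 with 1 pool left out; the 1 was Psmc4 (-0.45, limma adjusted p = 0.0317) without the Control pool at 4 h. For HF+SFC+ALA against HF the median of -0.0039 was -0.0095 with quantile normalization, -0.0058 with the 65th percentile filter and -0.011 with the mean over probe sets, and -0.047 to 0.011 with 1 pool left out. Among members more than 2 SE from 0, Psmd4 for fasting and Psmg2 for HF against Control turned sign, both with the mean over probe sets. Over all genes, the 276 fasting calls became 0 without the filter, 0 without the trend (2024 and 1635 at an unadjusted p of 0.05), 12 with the mean over probe sets, 60 with fasting time alone and 55 to 452 with 1 pool left out; the 102 calls for HF became 0, 0 and 1 in the first 3 of these settings (1988, 1341 and 1381 unadjusted) and 42 to 573 with 1 pool left out. For HF+SFC+ALA, 0 calls became 6 with the 65th percentile filter and 0 to 109 with 1 pool left out.

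The term for Control against both high-fat diets called 0 members in each of the 7 other settings run (smallest limma adjusted p 0.0683 to 0.876); with a pool left out it has no residual degrees of freedom. The design has 1 pool per group, so a group's own spread cannot be estimated. Pools are already compared within diet for fasting and within fasting time for diet, and fasting time alone is the unpaired fit. No paired analysis was possible by replicate number, because each group's only replicate number is 1.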

Other observations

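The Psmd11 gene was represented by 8 probe sets, of which 5 passed the filter on signal. All 5 had a positive mean log2 difference between 24 h and 4 h without food. The chosen one gave 0.24, and the others 0.24, 0.30, 0.31 and, for a dim one, 0.53. One of them read 6503, 5821 and 6179 at 4 h in Control, HF and HF+SFC+ALA and 8359.8, 7023 and 7410.0 at 24 h, so all 3 pools at 24 h were above those at 4 h. Psmd13, with 4 probe sets, was less uniform: the chosen one gave 0.10 and a second one above the filter -0.16. Probe sets of 1 gene read the same RNA pools and are not replicates.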
